A study of Mus musculus with 16 samples.

Results

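The comparison described here set cDC1 from the tumour-draining inguinal lymph node of Wdfy4 knockout mice (KO draining) against cDC1 from the inguinal node of the non-draining flank of knockout mice (KO non-draining). The arrays were taken by their titles, 4 of KO draining and 4 of KO non-draining cells, which is 8 of the 16 arrays of the series. The remaining 8 arrays held cells of mice labelled WDFY4 het, again 4 from each node, and entered the same fit. All mice were of the C57BL/6 strain and had received a regressor tumour in the back flank on the same schedule. The non-draining cells therefore also came from tumour-bearing animals. A regressor tumour is one that wild-type hosts go on to reject. Nodes were digested with enzymes and the cells sorted on day 6 without culture, and total RNA was measured on Affymetrix Mouse Gene 1.0 ST arrays. The labels do not say which part of Wdfy4 was deleted or in which cells, which tumour line was injected, how cDC1 were gated, or whether the 4 arrays of a group were 4 separate mice. The p-values therefore rest on the spread between arrays of a group, some of which may be technical.

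Type 1 conventional dendritic cells capture material from dying cells, carry it to the lymph node and show its peptides to CD8 T cells on MHC class I, a route called cross-presentation. In a lymph node some of them are resident, and others have migrated from the skin with raised CCR7, CD40 and costimulatory ligands. WDFY4 belongs to the BEACH-domain family and is required in cDC1 for the cross-presentation of antigen carried by cells. Mice that lack it do not reject tumours whose clearance depends on this route. The comparison asks whether the side of the tumour left a mark on the transcripts of cDC1 that lack WDFY4.

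In KO cells no gene passed the test between the 2 nodes. Of 19938 genes, 0 had a limma adjusted p under 0.05, which is 0% of those tested, and the smallest adjusted p was 1.00. An unadjusted p under 0.05 was found for 421 genes, 2.11% of those tested, of which 227 (1.14%) were higher and 194 (0.973%) lower in the draining node. The 4 draining arrays lay wholly above the 4 non-draining arrays for 169 genes (0.848%) and wholly below them for 118 (0.592%). If node labels were dealt to the KO arrays at random, an expected share of 0.0286 of genes would lie wholly above or wholly below. With other arrays left out, 0 genes passed as well, while the 421 became 809 without KO draining 3 and 663 without KO draining 4, and the 194 lower genes became 298 without KO non-draining 2. The difference was above 0 for 50.7% of genes, and the median standard error of a difference was 0.12 on the log2 scale. The 95% interval of the difference lay inside a 1.5-fold change in either direction for 17636 genes (88.5%) and inside a 2-fold change for 19806 (99.3%). Here and below, differences are draining minus non-draining on the scale of log2(intensity + 1), ± gives a standard error from limma unless an SD is named, and per-array values are linear intensities in the order of the arrays numbered 1 to 4.

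A single array stood apart, and values are given with and without it. On KO draining 2, 436 genes lay more than 1 log2 unit from the mean of the other 7 KO arrays, 367 of them lower and 69 higher, against 11 to 67 genes on each of those other arrays. Its median correlation with the other KO arrays was 0.976, against 0.986 to 0.991. On the first principal component of the 8 arrays, which held 45.2% of the variance, it scored -44.8, next came KO non-draining 2 at -16.8, and the 4 arrays numbered 3 and 4 lay between 12.3 and 20.6. Array weights estimated by limma gave it 0.26, the lowest of the 8. Without KO draining 2, again 0 genes passed, 364 (1.83%) were at an unadjusted p under 0.05, 209 (1.05%) higher and 155 (0.777%) lower. Of the 421 genes, 169 were also at an unadjusted p under 0.05 in the same direction without this array. The differences with and without it share 7 arrays and correlated across genes at r = 0.69, a description over genes that are not independent. Of the medians of the 36 gene lists searched, 25 changed sign when some KO array was left out, and 11 kept it.

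**Figure D1:**
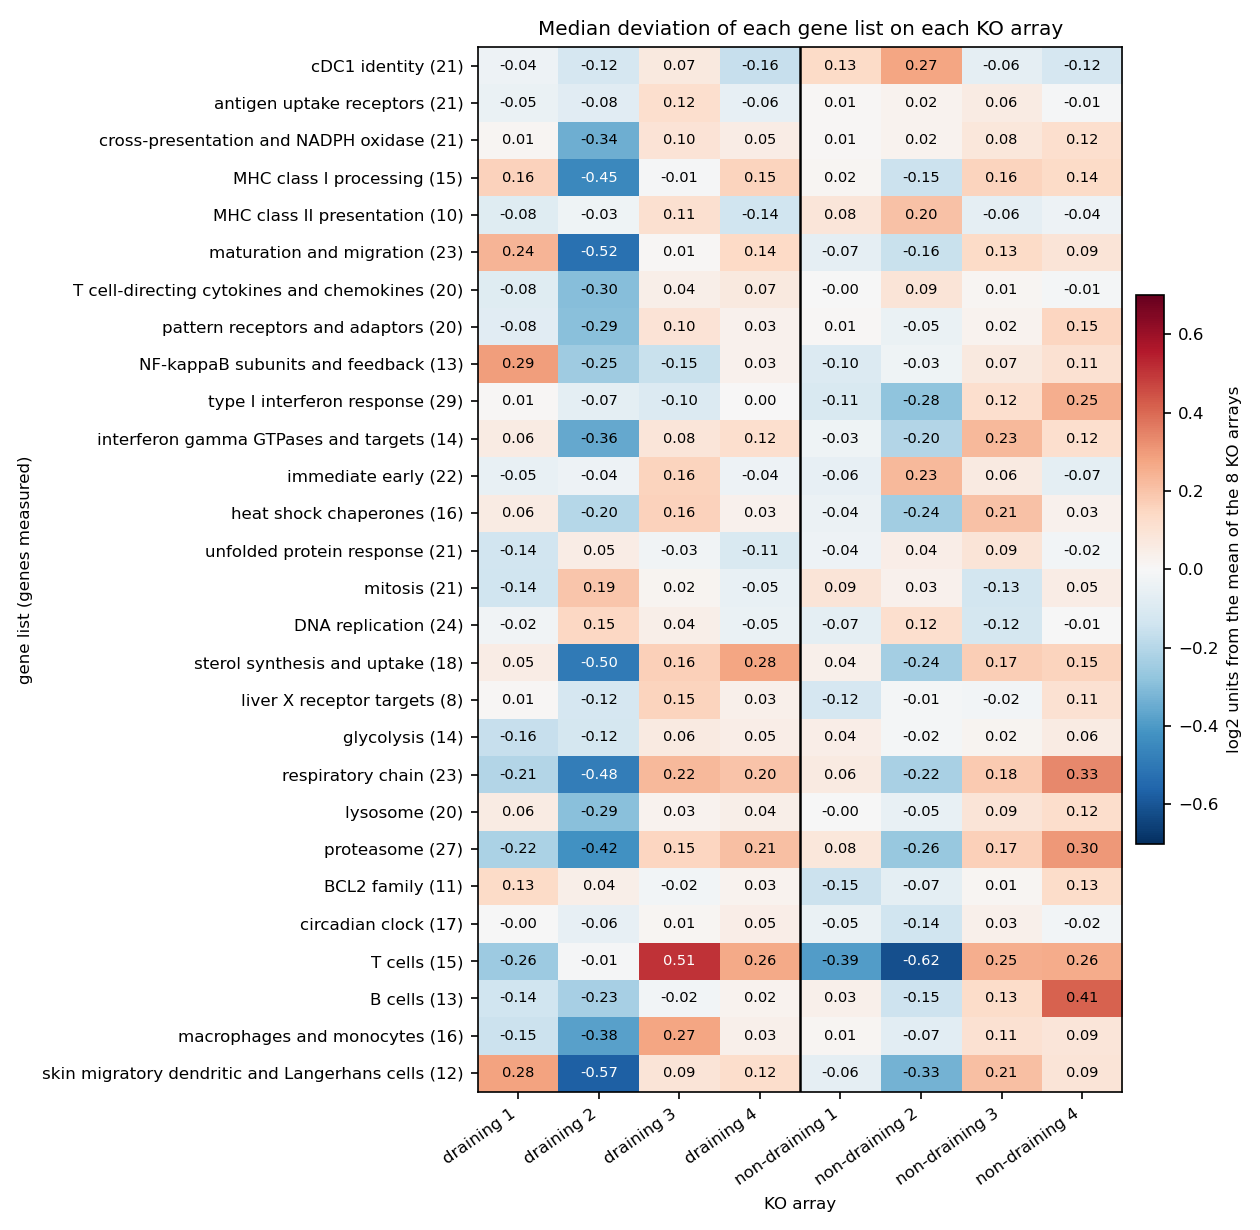
Median deviation of the genes of each list (rows) on each of the 8 KO arrays (columns), in log2 units from the gene's mean over these arrays, with the value printed in each cell. KO draining 2 is at -0.52 for the maturation and migration list, at -0.48 for the respiratory chain and at -0.42 for the proteasome, while the arrays numbered 3 and 4 of both nodes are on the other side of 0.

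Of the genes more than 1 log2 unit away on KO draining 2, most are in no list, and the lists describe only a small share of them. KO draining 2 was the lowest of the 8 KO arrays for 18 of 23 genes of the maturation and migration list, 18 of 23 respiratory chain subunits, 21 of 27 proteasome subunits, 12 of 18 genes of sterol synthesis and uptake and 10 of 15 of MHC class I processing. It was also the lowest for 13 of 20 lysosomal genes, 9 of 14 interferon gamma targets and 10 of 16 macrophage and monocyte markers. Over all genes it was the lowest for 23.7% and the highest for 26.5%. The lists just named were brighter, with median levels of 5.88 to 10.8 log2 units against 5.58 over all genes. Mean intensity over genes was 155 on KO draining 2 and 173 to 184 on the other KO arrays. The median intensity was 46.0, against 45.7 to 47.5. MHC class II genes, with a median level of 11.5, had a median gap of -0.03 on this array. The part of brightness in these counts was not tested. The largest gap downward within the lists was that of Cxcl13, a chemokine of lymph node stroma, at -1.87 log2 units from the mean of the other KO arrays. Ccl19 of the stroma list was at -1.21 there, and Ncr1 and Nkg7 of the NK list at -1.36 and -1.24. These lists as a whole were not low on this array, with median gaps of 0.04 for stroma and 0.07 for NK cells. It was the lowest of the 8 for 2 of 11 NK genes and the highest for 3. Their part in the other values was not tested. Among genes of dendritic cell functions the gaps included Il15, a cytokine that sustains CD8 T and NK cells, at -1.48, Ndufv1, a subunit of respiratory complex I, at -1.34, and Fdps, an enzyme of the mevalonate pathway, at -1.23. Upward, Jchain, the joining chain of secreted immunoglobulin and a plasma cell transcript, stood at 227 on KO draining 2 and at 105 on KO non-draining 3, and between 11.9 and 23.4 on the other 6 KO arrays. On the same array 11 of 21 mitosis genes had their highest value of the 8.

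The targeted gene was read first among single genes. Wdfy4 (probe set 10418848, chromosome 14) gave 2181, 2785, 2257 and 1786 in KO draining cells and 2356, 3165, 1923 and 2056 in KO non-draining cells. The groups overlapped, with a difference of -0.07 ± 0.18 and an exact two-sided permutation p of 0.743 over the 8 arrays. Without KO draining 2 the difference was -0.18 ± 0.18. Since the deleted part is not stated, probes outside it would still read the transcript, and this value does not check the genotype.

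The 10 genes of smallest p among those higher in the draining node with no overlap of arrays had unlike known roles. Cenpn, a centromere protein that helps to assemble the kinetochore, stood at 71.7, 87.4, 55.2 and 56.7 in draining and at 42.5, 46.1, 43.1 and 49.4 in non-draining cells. Every draining value was above every non-draining one, the highest being that of KO draining 2. The difference was 0.55 ± 0.13 (limma unadjusted p = 0.000753, adjusted p = 1.00) and 0.42 ± 0.12 without that array. Sdr42e1, a member of the short-chain dehydrogenase family, had the smallest p of any gene named by the rule. It was dim, at 26.6, 31.7, 28.5 and 30.2 against 23.5, 19.6, 22.4 and 23.8, a difference of 0.38 ± 0.09 and of 0.34 ± 0.09 without KO draining 2. Selenoi, which makes phosphatidylethanolamine, gave 154, 180, 164 and 146 in draining cells against 138, 116, 121 and 120, a difference of 0.38 ± 0.10. The other 7 named genes of this kind were Zc3h13, Traip, Slc16a4, Ciart, Trmt61b, Mpig6b and Slc35a3, with differences between 0.30 and 0.68. Zc3h13 is part of the complex that writes N6-methyladenosine on RNA, Traip is a ubiquitin ligase of the replication machinery, and Slc35a3 carries UDP-N-acetylglucosamine into the Golgi. Without KO draining 2 the differences of all 10 lay between 0.30 and 0.59. Their direction could not change, since genes chosen for no overlap stay higher whichever array is left out. For such genes the exact permutation p is fixed by the choice at 0.0286, the smallest that 4 against 4 arrays can give.

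Ciart had the largest of these differences. It encodes a repressor of the circadian clock (also called CHRONO) that acts on the CLOCK and BMAL1 pair, and it gave 48.2, 56.5, 44.6 and 39.4 in draining against 22.1, 30.7, 36.3 and 27.7 in non-draining KO cells. The lowest draining value, 39.4, lay close to the highest non-draining value, 36.3, and no values crossed. The difference was 0.68 ± 0.20 (limma unadjusted p = 0.00387, adjusted p = 1.00), and 0.59 ± 0.22 without KO draining 2. A second probe set of Ciart, of similar brightness in non-draining cells, gave 0.26 ± 0.21, and 0.19 without that array, so the 2 probe sets disagree on the size. Genes of the clock are often driven through the E-box CACGTG, and the RefSeq promoter of Ciart (GRCm38.p6, chr3:95882229-95882478, minus strand, the 250 bases before the start site) is shown here because its copies of that box can be read in it. The capitals mark the box:
Ciart: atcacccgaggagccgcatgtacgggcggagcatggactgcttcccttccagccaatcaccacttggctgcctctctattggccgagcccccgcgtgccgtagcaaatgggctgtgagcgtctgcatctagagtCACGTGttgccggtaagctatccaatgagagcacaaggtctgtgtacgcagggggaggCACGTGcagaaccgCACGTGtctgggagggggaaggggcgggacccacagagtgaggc
The window holds 3 copies of CACGTG, which reads the same on both strands, the nearest ending 38 bases before the start site. Of the 32851 RefSeq promoter windows of this length 6.02% hold at least 1 copy, and among the genes of the clock list with an entry 5 of 15 do. A match of letters is a description and not evidence of a bound site.

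The rest of the clock list held differences in both directions. Of its 17 genes, 11 were higher and 6 lower in the draining node, with a median difference of 0.05, against 50.7% higher and a median of 0.00 over all genes. In each direction 1 gene was at an unadjusted p under 0.05, where 1.14% of all genes were higher and 0.973% lower at that level. Cry2, a repressor of the same CLOCK and BMAL1 pair, was the other one, and it was lower. It gave 53.5, 38.4, 70.4 and 67.5 in draining against 75.8, 89.2, 67.5 and 73.6 in non-draining cells. The groups touched, because draining 3 lay above non-draining 3, and the difference of -0.44 ± 0.17 stood at -0.26 without KO draining 2. Arntl, which encodes BMAL1, was at 0.25 ± 0.16, Per1 at -0.13 ± 0.14, Dbp at 0.11 ± 0.15 and Nr1d1, which encodes REV-ERB alpha, at -0.09 ± 0.12. None passed the test, and the labels do not give the hour of harvest.

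**Figure D2:**
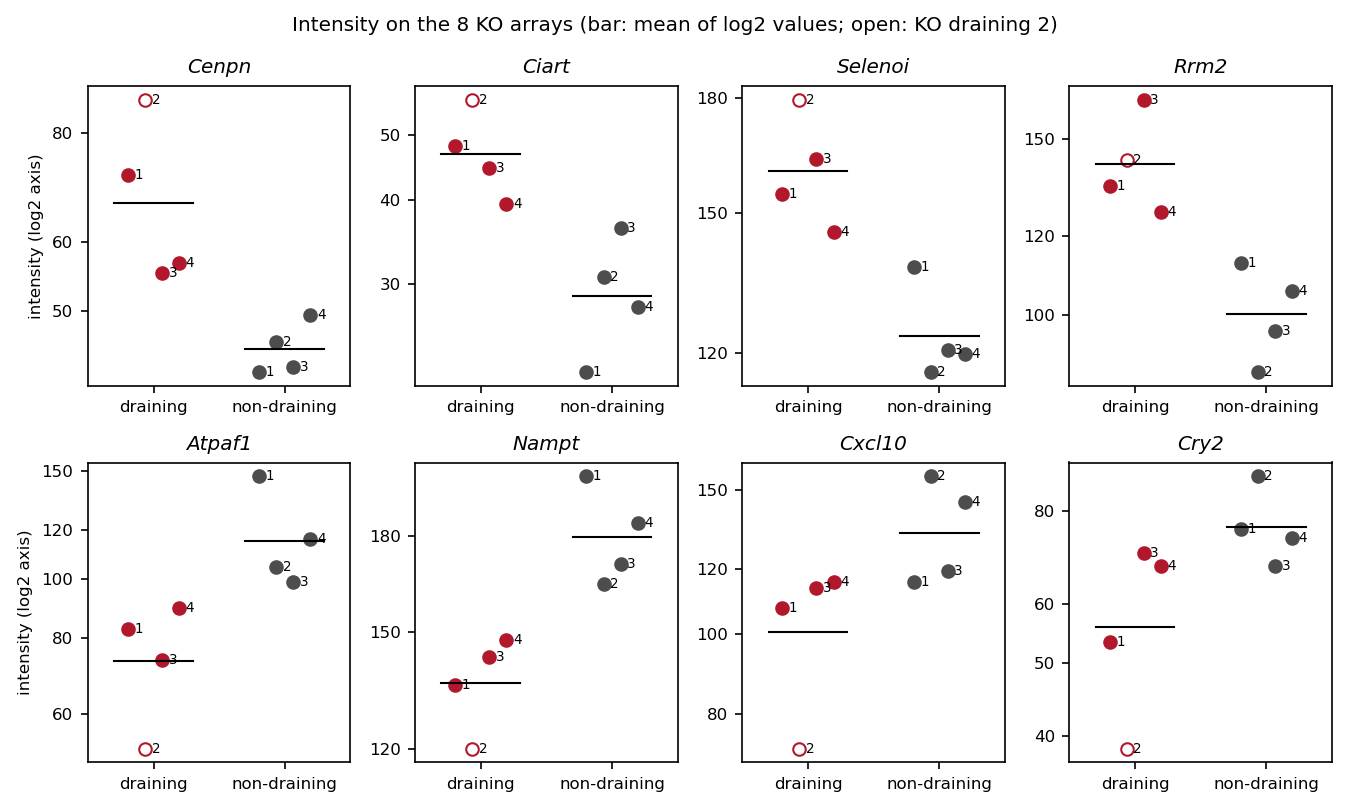
Linear intensity of 8 genes on the 8 KO arrays (log2 axis), draining and non-draining side by side, with the array number beside each point, KO draining 2 as an open circle, and the group mean of the log2 values as a bar. Cenpn, Ciart, Selenoi and Rrm2 lie higher in the draining node on every array, Atpaf1, Nampt and Cxcl10 lower, and Cry2 overlaps.

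Genes lower in the draining node with no overlap included factors of mitochondria and of NAD synthesis. Atpaf1, an assembly factor of the mitochondrial ATP synthase, stood at 82.9, 52.7, 73.6 and 89.6 in draining and at 147, 104, 98.8 and 116 in non-draining cells. The lowest value was that of KO draining 2, and the difference of -0.65 ± 0.16 (limma unadjusted p = 0.000834, adjusted p = 1.00) was -0.49 ± 0.14 without it. A second probe set of Atpaf1 gave -0.47 ± 0.12. Nampt, the enzyme that salvages nicotinamide for NAD, gave 136, 120, 143 and 148 against 202, 164, 171 and 185, a difference of -0.40 ± 0.13 and of -0.34 ± 0.13 without KO draining 2. Afg1l, a mitochondrial ATPase, was at -0.36 ± 0.11, and Mafg, a small MAF factor that pairs with NRF2, at -0.26 ± 0.08. The other 6 were Pbx4, Slc35e1, Krtap8-1, Med26, Nme7 and Gabrg3, between -0.40 and -0.28. Krtap8-1, a hair keratin-associated gene, and Gabrg3, a neuronal receptor subunit, were dim, at no more than 30.9 on any KO array, and differences of dim probe sets are compressed by the normalization. Without KO draining 2 all 10 were lower by 0.23 to 0.49 log2 units. Their direction could not change, since genes chosen for no overlap stay lower whichever array is left out.

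Leaving out KO draining 2 put other genes first. Phtf2, a transmembrane protein of the endoplasmic reticulum, gave 77.3, 36.7, 69.4 and 80.3 in draining against 48.2, 40.7, 61.1 and 58.7 in non-draining cells. KO draining 2 was the lowest of all 8 values, while the 3 other draining arrays were the highest. The difference was 0.54 ± 0.13 without that array (limma unadjusted p = 0.00055, adjusted p = 1.00) and 0.29 ± 0.19 with it. Nipa1, a magnesium transporter, was likewise at 0.50 ± 0.14 without it and 0.36 ± 0.15 with it. Dclre1a, a nuclease for DNA crosslink repair, was at 0.41 ± 0.10 and 0.33 ± 0.11. In the other direction Zfp951 was at -0.64 ± 0.18 without the array, Mustn1 at -0.46 ± 0.15, Slfn4, a myeloid Schlafen gene, at -0.34 ± 0.11, and Ror2, a receptor for WNT5A, at -0.27 ± 0.08. Again none passed the adjusted test.

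The genes that define cDC1 were present at high level in both nodes. Xcr1, the receptor for XCL1 by which cDC1 meet CD8 T cells, stood at 1812, 1754, 2138 and 1706 in draining and at 2487, 2495, 1611 and 1503 in non-draining cells. The 2 non-draining arrays numbered 1 and 2 were the highest and those numbered 3 and 4 the lowest, so the groups overlapped wholly, with a difference of -0.09 ± 0.21. Clec9a, a receptor for actin exposed on dead cells, gave -0.18 ± 0.14, Irf8, the factor that fixes the lineage, -0.09 ± 0.12, and Batf3, its partner, -0.10 ± 0.21. Of 21 identity genes measured of 22 listed, 3 were higher and 18 lower, with a median of -0.09, and 0 were at an unadjusted p under 0.05. Without KO draining 2, 5 were higher and 16 lower, and the median was -0.10. Without KO draining 4, 11 were higher and 10 lower (median 0.00), the same counts as without KO non-draining 2 (median 0.02). The median was -0.14 without KO draining 3 and without KO non-draining 3. The smallest p of the list belonged to Btla, an inhibitory receptor, at 465, 430, 514 and 368 against 582, 668, 478 and 480. Its groups overlapped, and the difference was -0.31 ± 0.17 with all arrays and -0.30 without that array. In the pairs numbered 1 and 2 alone the median of the list was -0.20, and in those numbered 3 and 4 it was 0.03. In bulk RNA of sorted cells, fewer cells of a kind and less RNA per cell cannot be told apart.

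Of 21 receptors for taking up antigen 10 were higher and 11 lower in the draining node, and without KO draining 2 these were 7 and 14. The median was -0.07 both times, and it lay between -0.09 without KO draining 3 and -0.01 without KO draining 1. With all arrays 0 were at an unadjusted p under 0.05. Cd36, a scavenger receptor for apoptotic cells, was at -0.25 ± 0.19, Clec7a, the beta-glucan receptor Dectin-1, at -0.11 ± 0.14, Axl at -0.09 ± 0.14 and Havcr2, which encodes TIM-3, at 0.04 ± 0.32.

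Among genes of presentation on MHC class I, Erap1 had the smallest p. It trims peptides in the endoplasmic reticulum to the length that class I binds. It gave 367, 275, 274 and 307 in draining against 222, 236, 249 and 303 in non-draining cells. Draining 2 and 3 lay below non-draining 4, so the arrays overlapped, and the difference was 0.28 ± 0.12 (limma unadjusted p = 0.034, adjusted p = 1.00) and 0.32 without KO draining 2. It was the 1 of 15 genes of the list at an unadjusted p under 0.05, where 1.14% of all genes were higher at that level. Tap1, a chain of the peptide pump, was at -0.09 ± 0.11, B2m, the light chain, at -0.06 ± 0.10, and Psmb8 and Psmb9, subunits of the immunoproteasome, at -0.06 ± 0.17 and -0.15 ± 0.19. Nlrc5, the transactivator of class I genes, was at -0.21 ± 0.15 by its brightest probe set, while its 19 probe sets ranged from -0.29 to 0.15. The median of the list was -0.06 with all arrays, with 3 higher and 12 lower, and 0.05 without KO draining 2, with 10 higher and 5 lower. After quantile normalization, which gives all arrays the same distribution, 7 were higher and 8 lower. For 13 of the 15 genes the 95% interval with all arrays lay inside a 1.5-fold change, as it did for 88.5% of all genes.

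All 10 measured genes of MHC class II presentation were lower in the draining node, with a median of -0.10, and 0 of them were at an unadjusted p under 0.05. H2-Ab1, the beta chain of I-A, read 8421, 9178, 8591 and 7557 against 9111, 9699, 8304 and 8281, a difference of -0.07 ± 0.09 with overlapping groups. Cd74, the invariant chain, was at -0.06 ± 0.11, Ciita, the master transactivator, at -0.17 ± 0.21, and Ctss, a protease that cuts the invariant chain, at -0.20 ± 0.18. Without KO draining 2 all 10 were again lower, with a median of -0.09. Without KO non-draining 2, 4 were higher and 6 lower (median -0.02), without KO draining 4, 2 were higher and 8 lower (median -0.04), and without KO draining 3 the median was -0.16. By array number the median was -0.25 in the arrays numbered 1 and 2 and 0.00 in those numbered 3 and 4. Over all genes 49.3% were lower, and of the 12254 with a mean log2 value of 5 or more 6834 were (median -0.02). After quantile normalization 2 of the 10 class II genes were higher and 8 lower, with a median of -0.05.

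Genes of cross-presentation and its vesicle traffic held no difference past the test. Of 21 measured of 23 listed, 8 were higher and 13 lower with all arrays (median -0.08), and 12 higher and 9 lower without KO draining 2 (median 0.04). Rab43, a GTPase required for cross-presentation in cDC1, gave 612, 545, 538 and 480 in draining against 693, 776, 547 and 552 in non-draining cells, with draining 1 inside the non-draining range, and differed by -0.23 ± 0.16. Sec22b, which brings endoplasmic reticulum proteins to the phagosome, was at -0.11 ± 0.18 and at 0.09 without that array. Cybb, the catalytic subunit of the phagocyte NADPH oxidase, was at 0.06 ± 0.31 and at 0.34 without it, and its value on KO draining 2 was 44.8 against 93.8 to 102 on the other draining arrays. The BEACH-domain relatives Lrba and Nbea stood at 0.14 ± 0.11 and 0.02 ± 0.11.

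The values of maturation genes depended on single arrays, KO draining 1 and 2 among them. With all arrays 8 of 23 were higher and 15 lower, with a median of -0.01. After quantile normalization of all arrays 14 were higher and 9 lower, with a median of 0.03. Without KO draining 2, 19 were higher and 4 lower, with a median of 0.13, while over all genes 9976 of 19938 (50%) were higher and the median was 0.00. Without KO draining 1, 3 were higher and 20 lower, with a median of -0.10, and without KO draining 4, 5 were higher and 18 lower, with a median of -0.09. Fscn1, the actin bundler of mature dendritic cells, gave 6739, 3064, 4354 and 5681 in draining against 4050, 4344, 5792 and 5093 in non-draining cells. Draining 1 was the highest and draining 2 the lowest of the 8, and the difference was -0.01 ± 0.21 with and 0.21 without draining 2. Cd40, the receptor for help from CD4 T cells, gave 1251, 646, 1144 and 1360 against 822, 910, 1334 and 1283, a difference of -0.01 ± 0.23 and of 0.23 without that array. Ccl22 and Ccl17, chemokines of migratory dendritic cells, were at 0.13 ± 0.24 and 0.18 ± 0.35 with it and at 0.38 and 0.47 without it. Ccr7, the receptor that leads dendritic cells into the node, was at -0.08 ± 0.15 with it and at 0.05 without it. Cd80, a ligand of CD28, went the other way, at -0.22 ± 0.23 and at -0.39 without that array. None of the 23 reached an unadjusted p under 0.05 with or without it. The smaller list of skin migratory dendritic cell genes had a median of -0.03 with all arrays, with 5 of 12 higher, and of 0.21 without KO draining 2, with 11 of 12 higher. Of these genes Epcam, which marks Langerhans cells, was dim and did not overlap, at 30.3, 31.0, 37.3 and 31.9 against 29.1, 22.3, 27.7 and 28.2, a difference of 0.28 ± 0.12.

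**Figure D3:**
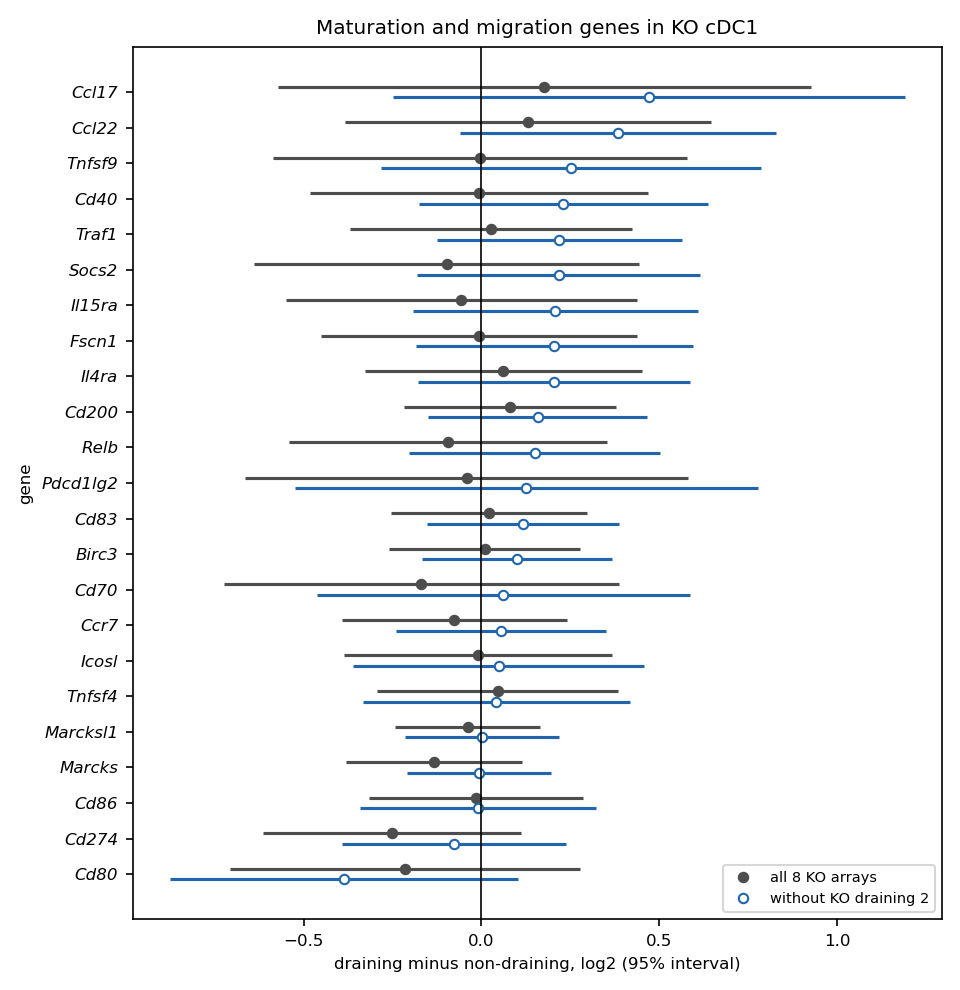
Draining minus non-draining difference in KO cells (log2) with its 95% interval from limma, for the 23 maturation and migration genes, with all arrays (filled) and without KO draining 2 (open). Every interval spans 0 with and without that array, and 19 of the 23 open points but 8 of the filled points lie right of it.

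Chemokines and cytokines for T cells included 1 gene of 20 with no overlap, where 0.592% of all genes lay wholly below. Cxcl10, which draws CXCR3-bearing T cells, stood at 108, 72.6, 114 and 115.7 in draining and at 115.7, 156, 120 and 145 in non-draining cells. The highest draining and the lowest non-draining array met at 115.7 after rounding, and the difference of -0.40 ± 0.17 (limma unadjusted p = 0.0360, adjusted p = 1.00) stood at -0.24 ± 0.16 without KO draining 2. Cxcl9, which binds the same receptor, was at -0.13 ± 0.17 and -0.24, and Cxcl16 at -0.10 ± 0.14 and 0.05. Il12b, a subunit of interleukin 12, was at -0.09 ± 0.17 and 0.13, Il15 at -0.10 ± 0.35 and 0.31, and Tnf at 0.24 ± 0.29 and 0.56. Tnf read 953, 280, 708 and 499 in draining against 444, 616, 444 and 402, so KO draining 2 was the lowest value and draining 1 the highest. It was the 1 gene of the list at an unadjusted p under 0.05 without that array, where 1.05% of all genes were higher at that level. With all arrays it was not at that level. Of the 20 genes 6 were higher and 14 lower with all arrays, and 11 higher and 9 lower without it.

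The promoter of Cxcl10 is shown because interferon-stimulated genes carry a repeat of GAAA that interferon regulatory factors read. The RefSeq window lies at chr5:92348890-92349139 (GRCm38.p6, minus strand, the 250 bases before the start site), and the capitals mark a match to the sequence GAAA, any 2 bases, GAAA, searched on both strands:
Cxcl10: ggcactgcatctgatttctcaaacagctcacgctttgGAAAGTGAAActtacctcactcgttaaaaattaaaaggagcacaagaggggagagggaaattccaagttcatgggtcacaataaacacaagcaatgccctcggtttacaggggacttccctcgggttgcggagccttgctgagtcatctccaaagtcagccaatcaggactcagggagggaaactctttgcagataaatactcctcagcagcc
The match ends 203 bases before the start site. Of all 32851 windows 2.98% hold such a match. Of the windows of the type I interferon list 9 of 23 (39.1%) do, from 9 of its 20 genes with an entry. In the list of cytokines and chemokines, which holds Cxcl10, 1 of 13 windows does.

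Type I interferon genes lay on both sides of 0. Of 29 measured of 32 listed, 11 were higher and 18 lower, with a median of -0.03, and of -0.02 without KO draining 2. It was -0.09 without KO non-draining 2, with 8 genes higher, and leaving out KO non-draining 4 gave 0.01, with 18 higher. Oas1a, which makes the activator of RNase L, was the 1 gene at an unadjusted p under 0.05, where 0.973% of all genes were lower at that level. It was dim, at 37.0, 29.3, 35.2 and 41.9 in draining against 33.8, 48.6, 55.6 and 64.5 in non-draining cells, with non-draining 1 inside the draining range, and differed by -0.46 ± 0.18. Its lowest value was that of KO draining 2. Without that array 0 genes of the list were lower at that level, beside 0.777% of all genes, and 1 was higher, beside 1.05%. The list split by array number, with a median of 0.21 in the arrays numbered 1 and 2 and of -0.17 in those numbered 3 and 4. Irf7, the factor that amplifies interferon, showed the split, with 309 and 416 against 288 and 271 in the first pair, and 221 and 243 against 440 and 616 in the second. Its difference over all arrays was -0.40 ± 0.28. Among interferon gamma targets 5 of 14 were higher and the median was -0.07, and without KO draining 2 these were 9 of 14 and 0.11. Gbp4, a guanylate-binding GTPase, was at 0.03 ± 0.22 and 0.22.

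Pattern receptors held 2 of 20 genes at an unadjusted p under 0.05, both lower, where 0.973% of all genes were. Cd14, a co-receptor for lipopolysaccharide that is also a marker of monocytes and macrophages, gave 133, 109, 204 and 187 in draining against 185, 229, 224 and 225 in non-draining cells. Draining 3 and 4 lay within the non-draining range, and the difference was -0.48 ± 0.20 and -0.32 without KO draining 2. Tlr12, a receptor for profilin of apicomplexan parasites, was at -0.32 ± 0.15 and -0.25. Without that array 0 of the 20 genes were at an unadjusted p under 0.05 in either direction, beside 1.83% of all genes. Tlr3, the receptor for double-stranded RNA that marks cDC1, was at -0.04 ± 0.33, with 1670 on KO draining 2 and 1907 on KO non-draining 2 against 709 to 1291 on the other 6 arrays. Of the other myeloid markers beside Cd14, Lyz2 was at -0.20 ± 0.20, Csf1r at 0.16 ± 0.12 and Adgre1, at intensities of 29.2 to 38.1, at 0.04 ± 0.12. The macrophage and monocyte list summed to between 1556 and 2812 on draining and 2224 and 2429 on non-draining arrays, and 10 of its 16 genes were lower. Its part in the value of Cd14 was not tested.

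Immediate early genes, which also respond to tissue handling, held no gene at an unadjusted p under 0.05. Of the 22 genes 6 were higher and 16 lower (median -0.05), and without KO draining 2 these were 13 and 9 (median 0.02). With all arrays, for 21 of them the 95% interval lay inside a 1.5-fold change, as it did for 88.5% of all genes. Fos was at -0.09 ± 0.17, Egr1 at 0.11 ± 0.19, Nr4a1, which T cells and dendritic cells switch on after stimulation, at -0.12 ± 0.17, and Jun, with the smallest p of the list, at 0.26 ± 0.14. Of 13 genes of the NF-kappaB list 5 were higher and 8 lower (median -0.04), and without KO draining 2 these were 8 and 5 (median 0.03). With all arrays 12 had an interval inside 1.5-fold, beside the same 88.5% of all genes. Nfkbia, the inhibitor that the pathway itself induces, was at 0.06 ± 0.11, and Rel at 0.02 ± 0.14. Heat shock chaperones had a median of -0.01, and of 0.03 without KO draining 2. Genes of the unfolded protein response had a median of -0.06, and of -0.08 without it.

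Respiratory and proteasome genes had lower medians with all arrays and medians near 0 without KO draining 2. Of 23 respiratory chain subunits 22 were lower, with a median of -0.14 and 0 at an unadjusted p under 0.05. Without the array 13 were lower and the median was -0.01, while it was -0.26 without KO non-draining 2 or KO draining 3 and -0.07 without KO non-draining 4. Cycs, which encodes cytochrome c, read 1265, 1393, 1557 and 1396 in draining against 1677, 1445, 1539 and 1862 in non-draining cells, a difference of -0.21 ± 0.12 with all arrays and of -0.21 without that one, with overlapping groups. Ndufv1, at 305, 147, 427 and 458 against 389, 252, 378 and 450, was at -0.23 ± 0.27 and at 0.12 without it. Of 27 proteasome subunits 25 were lower, with a median of -0.16, and without KO draining 2 these were 13 and 0.01. With another KO array left out the median lay between -0.24 and -0.09. Of 14 glycolysis genes 11 were lower with all arrays (median -0.11) and 12 without it (median -0.09). Pgk1 was at -0.19 ± 0.12, Aldoa at -0.24 ± 0.17 and Ldha at -0.18 ± 0.20. Among lysosomal genes Ctsl, a cysteine protease, was at -0.32 ± 0.13 and the 1 of 20 at an unadjusted p under 0.05, where 0.973% of all genes were lower at that level. It lay between 46.3 and 61.8 in draining and between 59.9 and 84.3 in non-draining cells, with draining 3 and 4 above non-draining 1. Without KO draining 2, 0 of the 20 lysosomal genes were at an unadjusted p under 0.05 in either direction, beside 1.83% of all genes.

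Sterol genes gave a median of 0.00 with 9 of 18 higher, and of 0.17 with 14 of 18 higher without KO draining 2. Insig1, which holds the sterol sensor in the endoplasmic reticulum and is itself induced by SREBP2, was at 257, 217, 169 and 188 in draining against 147, 175, 171 and 178 in non-draining cells. Draining 3 lay inside the non-draining range, and the difference was 0.29 ± 0.12 (limma unadjusted p = 0.0275, adjusted p = 1.00) and 0.27 without that array. Fdft1, squalene synthase, read 1490, 482, 1127 and 1300 against 1008, 733, 1134 and 938, a difference of 0.10 ± 0.26 and of 0.46 without KO draining 2. Of 8 liver X receptor targets 5 were higher, with a median of 0.07, and 0.16 without that array. Mylip, which sends the LDL receptor to the lysosome, was at 0.15 ± 0.11 with and without it, Abca1, the cholesterol exporter, at 0.02 ± 0.08, and Abcg1 at -0.02 ± 0.21 and 0.24.

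Genes of the cell cycle had medians near 0 between the nodes of KO mice. Of 21 mitosis genes 11 were higher and 10 lower, with a median of 0.00, and of 24 DNA replication genes 17 were higher and 7 lower, with a median of 0.03. With KO draining 2 left out, 8 mitosis genes were higher and 13 lower (median -0.08), and 14 replication genes were higher and 10 lower (median 0.01). Without KO draining 1, 16 mitosis genes were higher (median 0.10), and without KO non-draining 3 11 replication genes were (median -0.01). Mki67, the proliferation marker Ki-67, gave 518, 809, 423 and 358 in draining against 549, 568, 380 and 352 in non-draining cells, with KO draining 2 the highest of the 8, and its difference was 0.15 ± 0.28 with that array and -0.08 without it. Rrm2, the small subunit of ribonucleotide reductase, read 134, 143, 164 and 127 in draining and 113, 87.5, 96.3 and 106 in non-draining cells. The groups did not overlap, and the difference was 0.50 ± 0.20 (limma unadjusted p = 0.0239, adjusted p = 1.00) and 0.49 without KO draining 2. Bub1b, a kinase of the spindle checkpoint, was at 0.31 ± 0.14 and 0.21. Plk1, a kinase of mitotic entry, was at -0.30 ± 0.21 and -0.29. Genes of the BCL2 family had a median of 0.05, with Bcl2l11, which encodes the death promoter BIM, at 0.25 ± 0.18 and Bcl2l1 at 0.21 ± 0.18.

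**Figure D4:**
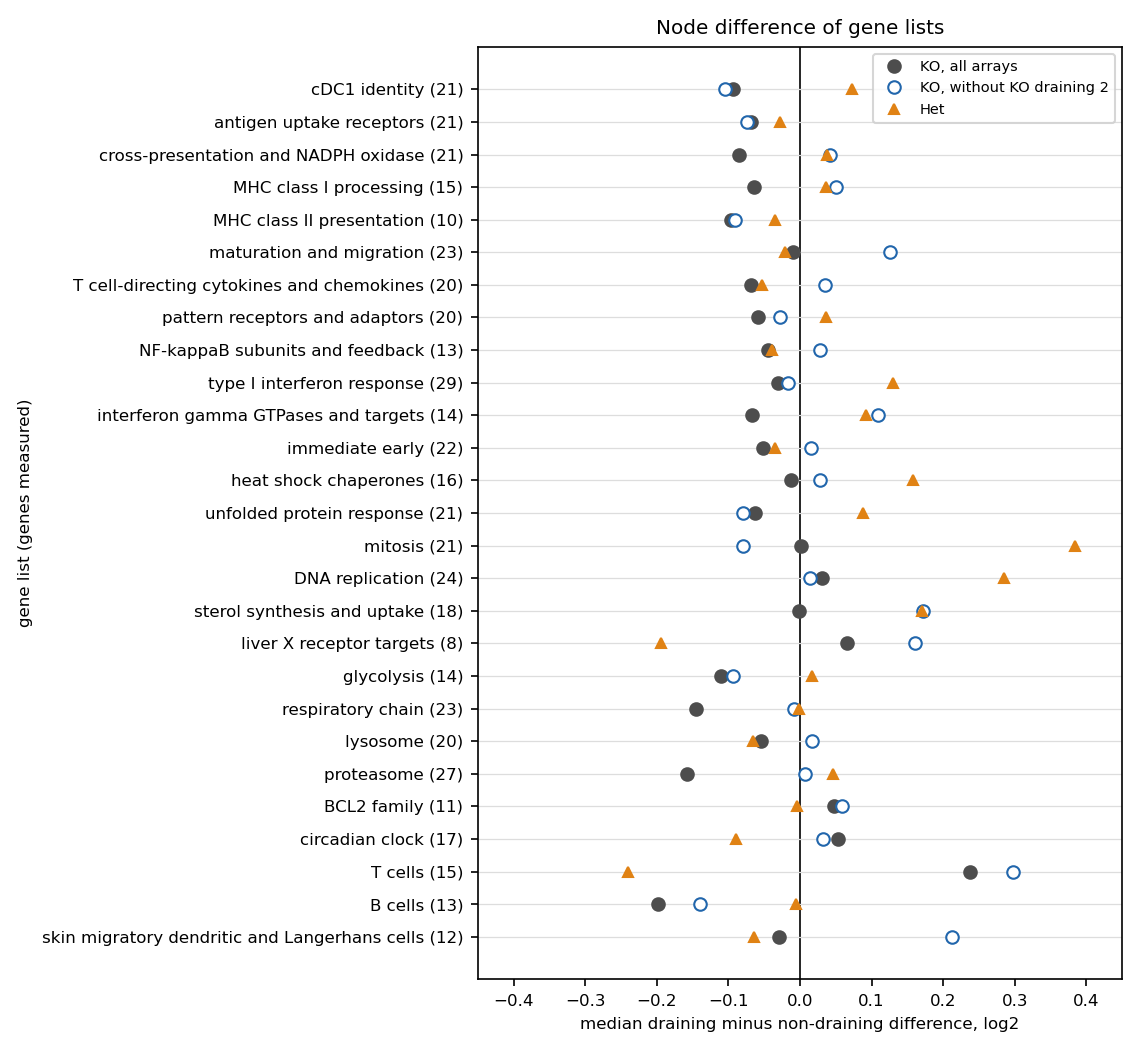
Median draining minus non-draining difference (log2) of each of the 24 gene lists of cDC1 functions and of T cell, B cell and skin migratory markers, in KO cells with all arrays, in KO cells without KO draining 2, and in Het cells. Mitosis and DNA replication lie near 0 in KO cells and at 0.38 and 0.28 in Het cells, and the respiratory chain and proteasome shift from -0.14 and -0.16 to -0.01 and 0.01 without KO draining 2.

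Among markers of other cells, those of T cells pointed one way. All 15 T cell genes measured of 18 listed were higher in the draining node, with a median of 0.24 and of 0.30 without KO draining 2. The median was 0.07 without KO non-draining 2, with 11 of 15 higher, and 0.15 without KO draining 3, with 12 of 15 higher. It was 0.13 without KO non-draining 1 and 0.15 without KO draining 4, and 0.36 without KO draining 1, with 14, 14 and 15 of 15 higher. With all arrays 0 were at an unadjusted p under 0.05. Cd3g, a chain of the T cell receptor complex, read 313, 442, 889 and 705 in draining against 226, 155, 787 and 629 in non-draining cells. Both groups were far higher on the arrays numbered 3 and 4 than on those numbered 1 and 2, the groups overlapped, and the difference was 0.58 ± 0.46. Cd5 was at 0.45 ± 0.27, Cd4 at 0.24 ± 0.14, and Cd3e, at 126 to 223 against 96.5 to 206, at 0.31 ± 0.31. The list summed to between 2180 and 3877 on draining and between 1466 and 3477 on non-draining arrays. Its median difference was 0.39 in the arrays numbered 1 and 2 and 0.11 in those numbered 3 and 4. The part of T cell transcripts in the other values was not tested. B cell genes were lower, 12 of 13, with a median of -0.20, of -0.14 without that array and of -0.30 without KO non-draining 2, and their sums lay between 854 and 1044 on draining and between 959 and 1293 on non-draining arrays. Blk, a B cell kinase, was the 1 gene of them at an unadjusted p under 0.05, at -0.30 ± 0.12, where 0.973% of all genes were lower at that level. Cd79a was at -0.21 ± 0.30. Lists of NK cells (median 0.01), plasmacytoid cells (-0.01), neutrophils (0.04), stroma (0.06) and cDC2 (-0.09) had medians within 0.1 of 0 with all arrays. With single KO arrays left out these ran from -0.12 to 0.17 for NK cells and from -0.10 to 0.05 for plasmacytoid cells. For neutrophils they ran from -0.06 to 0.06, for stroma from 0.00 to 0.08 and for cDC2 from -0.14 to 0.06. The cDC2 value of 0.06 was that without KO draining 2, with 8 of 12 genes higher, against 3 with all arrays. Ly6g, S100a8 and Ngp, which define neutrophils, did not exceed 22.5 on any of the 8 KO arrays.

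The cells of Het mice from the same 2 nodes let the difference itself be compared, and these share no arrays with the KO comparison. Across genes the KO and Het differences correlated at r = 0.08, over genes that are not independent. The test of the KO difference against the Het difference (the interaction in the same limma fit) called 0 of 19938 genes at an adjusted p under 0.05 (0%). At an unadjusted p under 0.05 it had 463 genes (2.32%), 198 (0.993%) with the KO difference above the Het difference and 265 (1.33%) with it below. Ciart was among the first: its 0.68 in KO cells stood beside -0.39 in Het cells, a difference of 1.08 with an interaction p of 0.00171 unadjusted and 1.00 adjusted in limma. The second probe set of Ciart was at 0.26 in KO and 0.09 in Het cells, with an unadjusted limma interaction p of 0.59. Vps37b, an ESCRT subunit, was at 0.29 ± 0.20 in KO and -0.70 in Het cells. Cxcl10, at -0.40 in KO and 0.53 in Het cells, had an unadjusted limma interaction p of 0.00156, and of 0.00285 without KO draining 2. Cdc25a, the phosphatase that starts S phase, read 57.8, 70.7, 78.5 and 76.0 in KO draining against 86.9, 81.2, 71.5 and 83.0 in KO non-draining cells. That overlapping difference of -0.19 ± 0.13 stood beside 0.54 in Het cells, for a limma interaction p of 0.00089 unadjusted and 1.00 adjusted. Gpr33, an orphan receptor of dendritic cells, was at -0.25 ± 0.17 beside 0.73, and Tacc3, a spindle protein, at -0.08 ± 0.11 beside 0.48.

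The cell cycle lists had medians near 0 in KO cells and above 0 in Het cells. All 21 mitosis genes and all 24 DNA replication genes were higher in the draining node of Het mice, with medians of 0.38 and 0.28, where 52.8% of all genes were higher. In KO mice the medians were 0.00 and 0.03. The KO difference was below the Het difference for 20 of 21 mitosis genes and 21 of 24 replication genes, where 52.3% of all genes were below. Of these, 7 mitosis genes and 4 replication genes were at an unadjusted interaction p under 0.05 with the KO difference lower, as were 1.33% of all genes, Plk1 with the smallest p. None passed the adjusted test. Without KO draining 2 the median interaction was -0.44 for mitosis and -0.26 for replication, against -0.41 and -0.24 with it. T cell genes ran the other way in Het mice, 14 of 15 lower in the draining node with a median of -0.24, and all 15 had a KO difference above the Het difference. The share of T cell transcripts in the cell cycle values was not tested.

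**Figure D5:**
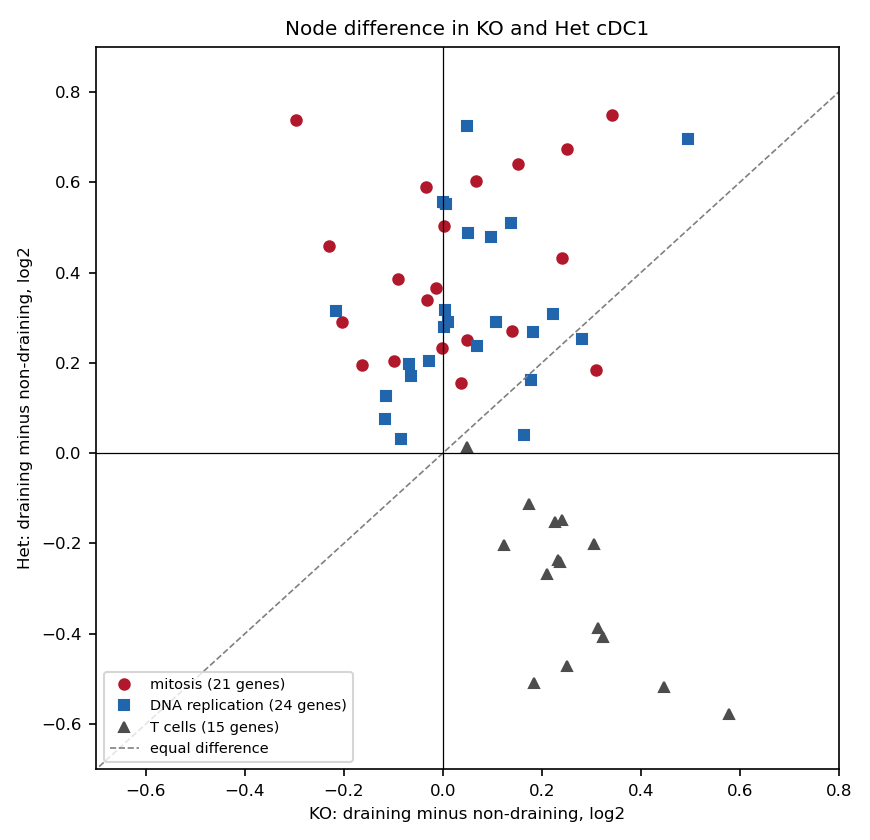
Draining minus non-draining difference (log2) in KO cells (x axis) against Het cells (y axis) for the genes of the mitosis, DNA replication and T cell lists, 1 point a gene, with the line of equal difference. All mitosis and replication genes lie above 0 on the Het axis, 11 of 21 and 17 of 24 of them lie right of 0 on the KO axis, and the 15 T cell genes lie right of 0 on the KO axis.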

How the data were processed

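Total RNA of sorted cDC1 was measured on 16 Affymetrix Mouse Gene 1.0 ST arrays, 4 in each of the groups KO draining, KO non-draining, Het draining and Het non-draining, which were taken from the sample titles. The submitters' processing notes name RMA, and the deposited values are intensities from it that the authors put on a linear scale. Which software, version and genome build they used was not given in the sources used here. The method subtracts background and forces the arrays to a common distribution before it combines the probes of a probe set. It compresses differences of dim probe sets. The median intensity of an array lay between 38.6 and 40.8 over all 35556 probe sets. The deposited values were still not fully matched between arrays. Over genes the mean intensity was 155 on KO draining 2 and 173 to 184 on the other KO arrays. No depth applies to arrays, and their number limits the precision.

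Of these probe sets 21789 carried 1 gene symbol in GEO's platform annotation, 1621 several and 12146 none. For 21698 the gene ID matched the RefSeq table. For each of 19938 genes the brightest probe set was used, and 999 genes had more than 1. Values were taken as log2(intensity + 1), so a difference is on that scale and understates the change of dim genes. limma 3.58.1 in R 4.3.3 fitted the 4 groups of all 16 arrays together (12 residual degrees of freedom, prior of 4.35), and p-values were adjusted by Benjamini-Hochberg over the 19938 genes. Exact permutation tests used the 8 KO arrays, where the smallest two-sided p is 0.0286. The fit was tested on simulated data. Python 3.11.15 with matplotlib 3.10.9 made the figures.

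The comparison, the gene lists (36 lists, 569 of 627 genes measured) and the tests were chosen with earlier results of these data known. Lists are described by counts and medians, with no test. Named are Wdfy4; per direction up to 10 genes of smallest p without overlap of the KO arrays, 5 without KO draining 2 and 5 in the interaction; and up to 4 genes of smallest p per list, or the members of a list described one by one. Predicted genes, small RNAs, olfactory and vomeronasal receptors and antigen receptor segments were left out of the naming. Several list members were named for their known role and not by this rule. Alternatives were other samples, blocks, pseudocounts, filters, normalizations, probe set rules and weights. Probe sets without 1 symbol were tested apart.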

Additional observations from a re-analysis of the deposited data

Results flagged for a closer look

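In the 2 KO groups of 4 arrays, 318 sets of values (the genes and lists described, and the array measures) were searched for an array far from the other 3, by a gap of more than 0.829 of the group's range, and 14 were found. Chance flags about 1 in 20 groups.

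Among the draining arrays, KO draining 2 was the lowest for Cybb at 44.8 (the others 93.8 to 102), for Cxcl10 at 72.6 (107.8 to 115.7) and for Cd79a, a chain of the B cell receptor, at 49.6 (67.7 to 68.9). It was also the lowest for the median deviation of the interferon gamma list at -0.359 log2 units (0.057 to 0.120) and of the lysosome list at -0.292 (0.027 to 0.057), and it had 436 genes more than 1 log2 unit from the other KO arrays (11 to 33 on the other draining arrays). KO draining 1 was the lowest for Tacc3 at 99.1 (132.2 to 134.4). KO draining 3 was the highest for the lists of antigen uptake receptors at 0.118 (-0.079 to -0.046) and of immediate early genes at 0.157 (-0.053 to -0.037).

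Among the non-draining arrays, KO non-draining 2 was the lowest for Aldoa at 856.1 (1076 to 1113) and the highest for Per1 at 720.3 (451.2 to 477.1) and for Zfp951 at 74.5 (49.5 to 50.8). Its median correlation with the other KO arrays was the lowest of its group at 0.986 (0.990 for the others). KO non-draining 1 was the lowest for Cd14 at 184.9 (223.9 to 228.8).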

How the results depend on the processing

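The count of 0 genes past the adjusted test held under all alternatives but the fit of the arrays numbered 3 and 4 alone, which called 1 gene. That gene, Mcpt2, a mast cell protease named after its value was seen, was at -1.42 there (limma adjusted p = 0.0116) and at -0.76 ± 0.28 over all arrays (adjusted p = 1.00). The interaction called 0 genes under all alternatives run. Leaving out each KO array in turn gave 363 to 809 genes at an unadjusted p under 0.05, 193 to 397 higher, 155 to 412 lower, 312 to 459 wholly above and 266 to 376 wholly below, the last 2 because fewer arrays have to be ordered. A random block of genotype and number gave 709 (396 higher, 313 lower). The arrays numbered 1 and 2 alone gave 861 (566 lower) with 2829 wholly above and 3153 wholly below, and those numbered 3 and 4 alone gave 760 (411 higher, 349 lower) with 3287 and 2993. Leaving out genes with a mean log2 value under 5 gave 222 (108 higher, 114 lower) with 69 and 71, from fewer genes tested. With the number as a fixed replicate block 605 genes were at an unadjusted p under 0.05, and no call changed. Same-numbered arrays correlated in their deviations between -0.01 and 0.48, and 2 of 4 draining arrays correlated best with their own number, so the numbers were not taken as pairs. A fit of the KO arrays alone without KO draining 2, chosen after seeing the data, gave 410 genes. Lyz2 reversed in the arrays numbered 3 and 4 alone, at 0.31, and the cause was not tested. The median differences of the 36 lists, recomputed under each alternative, stayed within the spread between arrays (1 SD) in all 288 values with an array left out and in 534 under the other alternatives, and moved further in 6. Leaving out 1 of 4 arrays can move a group mean by only part of that SD. Blocks, or a change of the variance estimate alone, leave the medians as they are. These counts could therefore show little, and 25 of the 36 medians changed sign when some KO array was left out. Dim probe sets, where RMA compresses differences, limit what can be read.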

Other observations

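Probe sets without a single gene symbol, which entered no comparison above, were tested in the same way. Of these 13767 probe sets 0 had a limma adjusted p under 0.05 between the nodes of KO mice, and 439 were at an unadjusted p under 0.05.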
